A study of Mus musculus with 40 samples.

Results

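The transcripts of 9 regulators of hepatocyte identity and hepatic metabolism were followed in mouse liver across a TCDD dose series. They were Hnf4a, Foxa1, Foxa2, Foxa3, Cebpa, Nr1h4, Nr1i2, Nr1i3 and Nr0b2, chosen by name from 55359 gene identifiers counted, and all 9 were among the 15373 genes with enough counts to be tested. TCDD, the reference dioxin, acts through the aryl hydrocarbon receptor (AhR), which turns on xenobiotic-metabolising genes when bound. Male C57BL/6 mice received sesame oil or TCDD by gavage from 30 days of age, once in 4 days over a period of 28 days, and livers were taken at 58 days of age. The 8 groups held 5 mice each. They were the sesame oil group (vehicle), 3 low doses (0.03, 0.1 and 0.3 μg/kg), 2 middle doses (1 μg/kg and 3 μg/kg) and 2 high doses (10 μg/kg and 30 μg/kg), with no transgene or deletion in any group and 1 mouse per library. Gavage and sacrifice fell in the first hours of the light phase in every group.

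HNF4A, the FOXA proteins and CEBPA bind enhancers of hepatocyte genes and together hold the program for plasma proteins, lipoproteins, gluconeogenesis and the urea cycle. The nuclear receptors among the 9 sense small molecules: NR1H4 (FXR) binds bile acids, while NR1I2 (PXR) and NR1I3 (CAR) respond to xenobiotics. NR0B2 (SHP) is an atypical receptor without a DNA-binding domain that FXR induces and that represses bile acid synthesis.

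The libraries held 15496128 to 20967093 counts in genes, which put at least 66 counts behind every value of the 9 regulators (Nr0b2 in a mouse at 30 μg/kg). Levels are given as CPM (a gene's share of the counts of its library), scaled for library composition. The AhR target Cyp1a1 was at 0.979 to 2.33 CPM in vehicle mice and at 4746 to 6370 CPM at 30 μg/kg, so vehicle and treated mice separated as labelled. The hepatocyte markers Alb, Apoa1, Apoh, Ttr, Fgb and Serpinc1 summed to between 98555 and 120442 CPM in vehicle mice, which fits the labelled tissue. In bulk tissue, fewer hepatocytes and less RNA per hepatocyte cannot be told apart.

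The windows of up to 250 bases before the start of the genes that carry the main contrasts are shown for the 3 regulators that fell earliest or farthest (Foxa1, Cebpa and Nr0b2), for Foxa3 with its drop at a middle dose, and for Hnf4a, which was called at no dose. They are RefSeq sequences on GRCm38.p6, 5′ to 3′ on the strand of the gene and without exon bases, and capitals mark the AhR core GCGTG or the FOXA motif TGTTTAC on either strand. The Foxa1 window was chr12:57546122-57546361 (minus strand) and the Cebpa window chr7:35119043-35119292 (plus strand). The Nr0b2 window was chr4:133553126-133553375 (plus), the Foxa3 window chr7:19023540-19023789 (minus) and the Hnf4a window chr2:163506607-163506807 (plus, the upstream of 2 listed starts). The window of the downstream Hnf4a start, chr2:163546943-163547154 (plus), is not shown. Which of the 2 starts was used in these livers was not tested.
Foxa1: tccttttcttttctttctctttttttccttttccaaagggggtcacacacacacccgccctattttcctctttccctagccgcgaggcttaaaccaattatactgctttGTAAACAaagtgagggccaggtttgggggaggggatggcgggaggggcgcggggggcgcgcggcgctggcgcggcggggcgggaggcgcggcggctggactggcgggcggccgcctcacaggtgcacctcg
Cebpa: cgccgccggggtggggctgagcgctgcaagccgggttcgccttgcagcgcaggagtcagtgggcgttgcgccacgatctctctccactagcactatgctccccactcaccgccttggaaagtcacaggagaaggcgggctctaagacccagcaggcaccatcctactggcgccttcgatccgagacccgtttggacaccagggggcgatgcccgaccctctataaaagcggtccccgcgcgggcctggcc
Nr0b2: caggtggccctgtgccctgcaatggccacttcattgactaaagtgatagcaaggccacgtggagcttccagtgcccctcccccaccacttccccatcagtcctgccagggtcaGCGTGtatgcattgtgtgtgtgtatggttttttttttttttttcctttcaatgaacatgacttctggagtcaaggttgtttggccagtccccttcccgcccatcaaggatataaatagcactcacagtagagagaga
Foxa3: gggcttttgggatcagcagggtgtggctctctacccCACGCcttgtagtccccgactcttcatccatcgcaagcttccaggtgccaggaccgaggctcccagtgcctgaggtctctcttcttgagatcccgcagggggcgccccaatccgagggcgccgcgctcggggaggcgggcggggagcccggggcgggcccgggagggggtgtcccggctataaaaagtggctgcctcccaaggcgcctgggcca
Hnf4a: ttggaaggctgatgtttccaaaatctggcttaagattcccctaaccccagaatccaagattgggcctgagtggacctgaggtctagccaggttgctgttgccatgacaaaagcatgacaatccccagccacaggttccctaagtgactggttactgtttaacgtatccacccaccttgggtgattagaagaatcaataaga

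The AhR core was present 137 bases before the Nr0b2 start and 214 bases before the Foxa3 start, and in 2 of 3 windows of Foxa2. It was found in 28.2% of 32851 promoter windows of all genes, so its presence in these windows is common. The FOXA motif lay 141 bases before the Foxa1 start and was found in 3.17% of all windows. Neither motif was in the windows of Cebpa, Hnf4a, Nr1h4, Nr1i2 or Nr1i3. The only Nr1h4 window, chr10:89506659-89506908, lies inside the gene, which spans chr10:89454234-89533585 (minus strand) in the GENCODE M21 annotation. The Foxa1 window likewise lies inside its gene, chr12:57540628-57546916 (minus). For these 2 genes the bases before the outermost annotated start were therefore not searched. The CEBP motif TTGCNNAA (9.56% of all windows), the HNF4 motif CAAAGTCCA (0.384%) and the inverted repeat that FXR can bind, AGGTCA and TGACCT with 1 base between (0.00609%), were in none of the 12 windows of the 9 regulators. The windows of Cebpa, Foxa1 and Foxa3 held 22, 21 and 18 CpG dinucleotides, against a median of 6 over all windows, while that of Nr0b2 held 3. The Hnf4a windows held 1 (upstream start, shown above) and 4 (downstream start).

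In vehicle liver the 9 transcripts spanned a wide range of levels per length of transcript. Cebpa was highest, at 174 ± 21.6 RPKM (CPM per kilobase of exons, SD, n = 5), followed by Hnf4a at 127 ± 21.0, and the ranges of the 5 mice overlapped. Nr0b2 was at 62.0 ± 24.5, with the widest spread among mice, and overlapped Nr1h4 at 48.0 ± 6.05. Nr1i2 followed at 35.2 ± 3.39, below every mouse's Nr1h4 level. Foxa2 (18.6 ± 4.44) and Foxa3 (18.0 ± 5.24) could not be ordered, and Foxa1 was lower at 8.41 ± 0.812. Nr1i3 was lowest at 5.52 ± 1.10, a value that depends on how overlapping fragments are counted. With fragments shared with its neighbour included, it was 58.4 ± 6.66.

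Most of the 9 transcripts were called lower at 30 μg/kg, and 2 of them were already called lower at 10 μg/kg. Calls required a change of at least 1.5-fold and a Benjamini-Hochberg adjusted p below 0.05 by edgeR. At 0.03 μg/kg 0 of 9 were called (background over all 15373 genes, 0.0195%), as at 0.1 μg/kg (0.0976%), at 0.3 μg/kg (0.468%) and at 3 μg/kg (6.75%). By edgeR's unadjusted p under 0.05 the counts at these doses were 0, 0, 1 and 2, and DESeq2 also called 0 at each. At 1 μg/kg 1 was called, Nr1i3, and it was higher (2.15% of all genes called higher, 0.637% lower and 2.78% in either direction). At 10 μg/kg Cebpa and Foxa1 were called lower and none higher (8.13% of all genes lower, 13.6% higher, 21.8% in either direction). At 30 μg/kg 6 of 9 were called lower, namely Cebpa, Foxa1, Foxa2, Foxa3, Nr0b2 and Nr1h4, against 18.9% of all genes lower, 23.2% higher and 42.1% called in either direction. By adjusted p alone 4 of 9 passed at 10 μg/kg (3 lower; 14.1% of all genes lower, 31.8% either way) and 8 of 9, all lower, at 30 μg/kg (26.6% lower, 55.4% either way). The median log2 fold change of the 9 was -0.40 at 10 μg/kg and -1.26 at 30 μg/kg, against 0.01 and 0.03 over all genes.

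**Figure D1:**
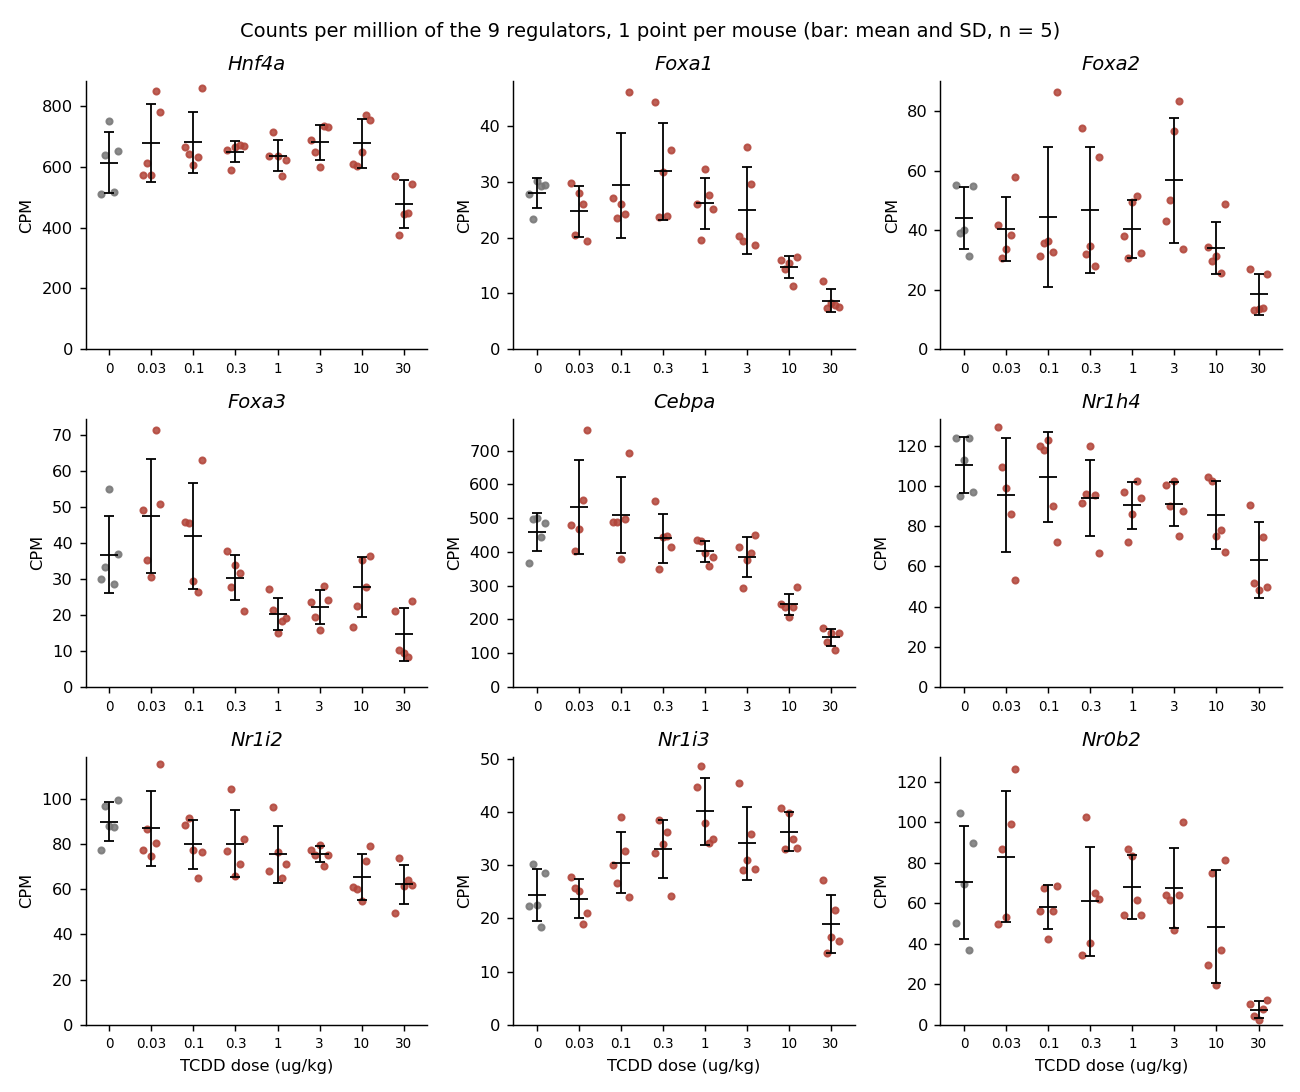
CPM (y axis, linear from 0) of each of the 9 transcripts by TCDD dose (x axis, 0 is sesame oil), with 1 point per mouse and the mean ± SD of 5 mice as a bar. Cebpa, Foxa1 and Nr0b2 at 30 μg/kg lay below every vehicle mouse, Hnf4a overlapped vehicle at every dose, and Nr1i3 was above every vehicle mouse at 1 and 10 μg/kg.

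Hnf4a, which encodes a master regulator of the hepatocyte program, was called at no dose. Its vehicle values were 511, 640, 751, 516 and 652 CPM, and at 30 μg/kg they were 571, 376, 446, 450 and 542 CPM. The groups overlapped, with 3 of 5 mice at 30 μg/kg below every vehicle mouse. This gave a log2 fold change of -0.36 ± 0.12 (SE; edgeR adjusted p = 0.0121), short of the 1.5-fold limit. At the 6 lower doses group means lay between 636 and 681 CPM, against 614 ± 101 in vehicle (SD, n = 5), and none was called. When libraries were scaled to their totals alone the 30 μg/kg value was 0.12, with the opposite sign. That scaling moved the median of all genes to 0.52, so that 6393 genes were called higher and 1560 lower, compared with 3567 and 2909.

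Foxa1, a pioneer factor that opens chromatin at liver enhancers, fell at 10 and 30 μg/kg. Vehicle mice had 27.8, 23.4, 30.1, 29.3 and 29.3 CPM, mice at 10 μg/kg 16.0, 14.3, 15.5, 11.4 and 16.5, and mice at 30 μg/kg 12.3, 7.36, 8.31, 7.89 and 7.54. All 10 treated values were below every vehicle value. Foxa1 had a log2 fold change of -0.93 ± 0.20 at 10 μg/kg (edgeR adjusted p = 0.000289) and -1.69 ± 0.20 at 30 μg/kg (adjusted p = 3.3e-09). In the first of 2 blocks of library title numbers alone (up to 27, 19 libraries, against 28 and above, 21 libraries) the 10 μg/kg value was -0.85 (adjusted p = 0.0855) and not called. At 3 μg/kg the mean was 24.9 ± 7.72 CPM (SD), with mice between 18.7 and 36.2. There 3 of 5 mice were below every vehicle mouse and 1 was above every vehicle mouse.

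Foxa2, which also controls bile acid transport and glucose production in liver, fell at 30 μg/kg. Vehicle mice had 55.3, 39.2, 40.1, 31.4 and 54.8 CPM and mice at 30 μg/kg 26.8, 13.2, 13.4, 13.8 and 25.2, with no overlap. Foxa2 thus differed by -1.26 ± 0.29 on the log2 scale (edgeR adjusted p = 0.000393). The 10 μg/kg value was -0.38 ± 0.29 (edgeR adjusted p = 0.340), with values from 25.7 to 48.7 CPM and 3 of 5 mice below every vehicle mouse. At 3 μg/kg the value was 0.36 ± 0.29 (adjusted p = 0.495) and the 5 mice spread from 33.7 to 83.6 CPM.

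Foxa3, the member of the family expressed together with Foxa1 and Foxa2 in adult liver, did not move step by step with dose. Vehicle mice had 29.9, 33.3, 55.0, 28.7 and 37.0 CPM. At 1 μg/kg the values were 27.2, 21.4, 15.0, 18.4 and 19.0 CPM, all below every vehicle mouse. So were the values at 3 μg/kg (15.7 to 28.0 CPM), whereas at 10 μg/kg (16.8 to 36.5 CPM) 3 of 5 were. Log2 fold changes of Foxa3 were -0.86 ± 0.27 at 1 μg/kg (edgeR adjusted p = 0.0667), -0.72 ± 0.27 at 3 μg/kg (adjusted p = 0.0842) and -0.40 ± 0.27 at 10 μg/kg (adjusted p = 0.266). It was called at 30 μg/kg, with values of 21.1, 10.3, 9.33, 8.33 and 23.9 CPM and a log2 fold change of -1.34 ± 0.27 (adjusted p = 7.7e-05). The value at 1 μg/kg was called by DESeq2 (adjusted p = 0.0332) and in a fit of those 2 groups alone (adjusted p = 0.00864). In mice given 10 μg/kg, Foxa3 was at -1.01 on the log2 scale (adjusted p = 0.0475, called) in the first block of title numbers alone and 0.01 in the second. Both values rest on only part of the 5 mice of each group.

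Cebpa, a basic leucine zipper factor needed for hepatic gluconeogenesis and the quiescent state of hepatocytes, fell at 10 and 30 μg/kg. Vehicle mice had 366, 498, 501, 443 and 486 CPM, mice at 10 μg/kg 246, 238, 206, 236 and 295, and mice at 30 μg/kg 173, 132, 159, 110 and 159. The 3 groups did not overlap with each other. Cebpa had a log2 fold change of -0.91 ± 0.15 at 10 μg/kg (edgeR adjusted p = 1.3e-05) and -1.65 ± 0.16 at 30 μg/kg (adjusted p = 2.1e-11). At 1 and 3 μg/kg the means were 401 ± 32.2 and 386 ± 58.9 CPM (SD), with 1 of 5 mice at each dose below every vehicle mouse. Of the 4 members of the HNF4A, FOXA and CEBPA set that fell at 30 μg/kg, Cebpa had the smallest relative spread there, with an SD of 17.3% of the mean.

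**Figure D2:**
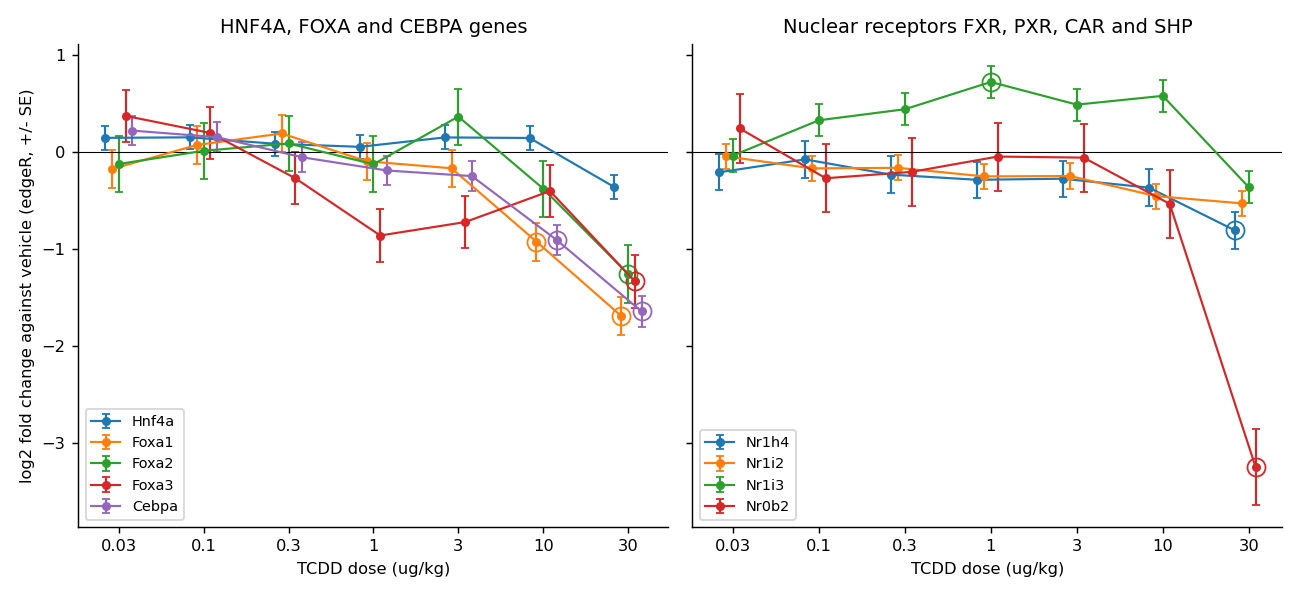
Log2 fold change against vehicle (y axis, edgeR estimate with SE bars) at each of 7 TCDD doses (x axis, equal steps) for the HNF4A, FOXA and CEBPA genes (left) and the nuclear receptor genes (right), with a ring round each called value. Foxa1 and Cebpa carry rings at 10 and 30 μg/kg, Nr0b2 reaches -3.25 at 30 μg/kg, and Nr1i3 is positive from 0.1 to 10 μg/kg and -0.37 at 30 μg/kg.

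Nr0b2 (SHP) had the largest fall of the 9, and it was called at the highest dose alone. Vehicle mice had 50.3, 105, 69.6, 36.8 and 89.7 CPM and mice at 30 μg/kg 10.3, 4.20, 2.51, 7.89 and 12.1, with no overlap between the groups. Its log2 fold change was -3.25 ± 0.39 (edgeR adjusted p = 4.5e-09). Nr0b2 values at 10 μg/kg, of 29.3, 75.0, 19.6, 36.8 and 81.3 CPM, ran across the vehicle range and the log2 fold change was -0.54 ± 0.35 (adjusted p = 0.259).

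Nr1h4 (FXR), the bile acid receptor that induces Nr0b2, fell less. Vehicle mice had 124, 95.2, 113, 124 and 97.0 CPM and mice at 30 μg/kg 90.7, 51.7, 48.1, 74.8 and 49.9. The highest treated mouse was just under the lowest vehicle mouse. Its log2 fold change was -0.81 ± 0.19 (edgeR adjusted p = 0.000370), and with library totals alone it was -0.33 (adjusted p = 0.153) and no longer called. Nr1h4 at 10 μg/kg was at -0.37 ± 0.19 (edgeR adjusted p = 0.132), with 3 of 5 mice below every vehicle mouse.

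Nr1i2 (PXR) changed little in size but evenly among mice. Vehicle mice had 77.6, 97.1, 88.0, 87.7 and 99.4 CPM and mice at 30 μg/kg 49.5, 74.0, 61.5, 64.2 and 61.8, with no overlap. Nr1i2 had a log2 fold change of -0.53 ± 0.13 (edgeR adjusted p = 0.000616), or 1.45-fold, short of the limit. Without replicate 2 at 30 μg/kg it was -0.62 and called, and in the second block of title numbers alone -0.61 and called. Nr1i2 at 10 μg/kg was at -0.46 ± 0.13 (edgeR adjusted p = 0.00576), likewise short of the limit, with 4 of 5 mice below every vehicle mouse. With library totals alone Nr1i2 was at -0.26 at 10 μg/kg (edgeR adjusted p = 0.0985) and -0.03 at 30 μg/kg (adjusted p = 0.831). The fall was therefore not seen at 30 μg/kg under that scaling.

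Nr1i3 (CAR) went in the other direction at intermediate doses. Vehicle mice had 22.4, 30.1, 22.6, 18.3 and 28.5 CPM, and mice at 1 μg/kg 44.7, 48.7, 38.0, 34.2 and 34.9, all above every vehicle mouse. Nr1i3 at 1 μg/kg was at 0.72 ± 0.17 on the log2 scale (edgeR adjusted p = 0.00675), and Nr1i3 was not called in either block of title numbers alone (0.80, adjusted p = 0.0989, and 0.56, adjusted p = 0.546). Its values at 10 μg/kg of 40.7, 33.0, 39.7, 34.9 and 33.3 CPM were again all above vehicle, with a log2 fold change of 0.58 ± 0.16 (adjusted p = 0.00631) just short of the limit of 0.58496. Leaving out vehicle replicate 2 or 5, or replicate 2, 4 or 5 at 10 μg/kg, gave 0.66, 0.64, 0.61, 0.59 and 0.61, each called. At 30 μg/kg the values were 27.2, 13.6, 16.6, 21.5 and 15.8 CPM, with 3 of 5 below every vehicle mouse and a log2 fold change of -0.37 ± 0.17 (adjusted p = 0.0591). With library totals alone the 30 μg/kg value was 0.11, with the opposite sign. The 10 μg/kg value was then 0.80 (edgeR adjusted p = 0.000439) and called. Under that scaling 1 of the 9 regulators was called higher and 2 lower at 10 μg/kg.

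The count of Nr1i3 rests on a small share of its fragments. In the GENCODE M21 annotation of GRCm38, Nr1i3 lies at chr1:171213970-171220701 on the plus strand, and 74.9% of its exon bases (3304 bases) are also exons of Tomm40l on the minus strand, a gene for a mitochondrial import protein. The libraries keep no strand, and the deposited unstranded count leaves out fragments that fall in exons of both genes. Across the 40 libraries the unstranded count held 7.27% to 13.0% of the fragments in Nr1i3 exons. The count of the 2 strand columns together, which includes the shared fragments, was 258 ± 29.4 CPM in vehicle, 434 ± 53.7 at 1 μg/kg, 369 ± 51.6 at 10 μg/kg and 226 ± 41.0 at 30 μg/kg (SD, n = 5). On that count the log2 fold changes were 0.75 (called), 0.52 and -0.18, with edgeR adjusted p of 0.00284, 0.0110 and 0.341. Fragments assigned to Tomm40l alone were higher by 1.32 at 1 μg/kg, 1.41 at 10 μg/kg and 0.85 at 30 μg/kg on the log2 scale, all called, and which of the 2 genes the shared fragments came from cannot be told apart. Cebpa shares 51 exon bases with the antisense gene Gm45091 and its unstranded count held 83.0% to 87.7% of its fragments, while the other 7 regulators kept at least 97.3%.

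**Figure D3:**
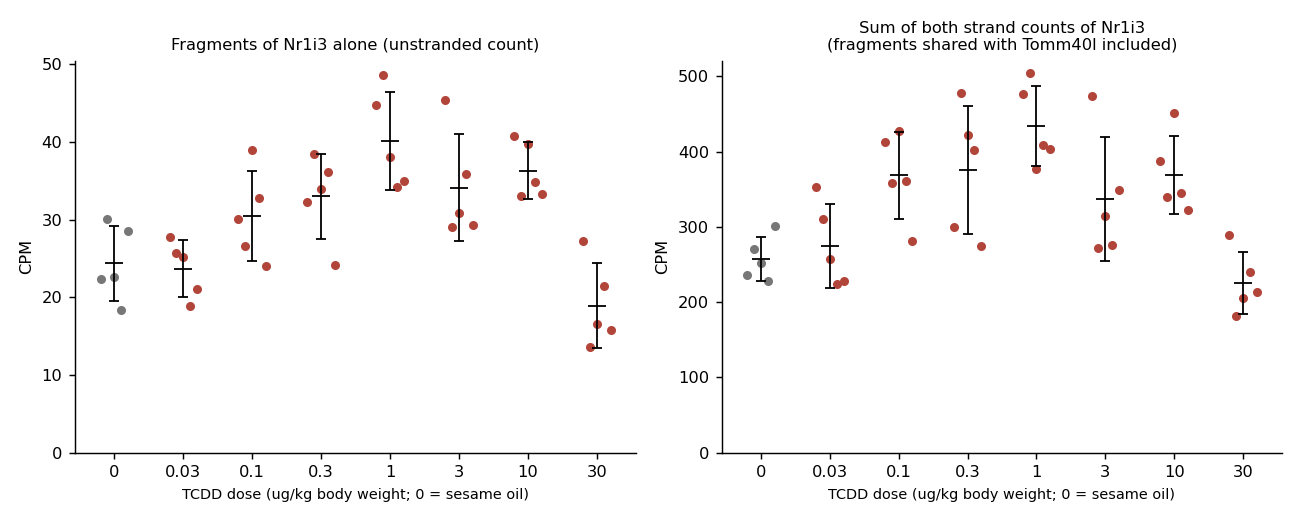
CPM of Nr1i3 (y axes, linear from 0, different scales) by TCDD dose (x axis) from fragments of Nr1i3 alone (left) and from both strand columns together, which include fragments shared with Tomm40l (right), with 1 point per mouse and the mean ± SD of 5 mice. Both counts are highest at 1 μg/kg, and both lie below their 1 μg/kg values at 30 μg/kg in every mouse.

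Of the 9 regulators, 7 had all 5 mice at 30 μg/kg below every vehicle mouse (all but Hnf4a and Nr1i3), against 17.9% of all genes, and 0 had all 5 above (19.7% of all genes). The same held at 10 μg/kg for Foxa1 and Cebpa (10.1% of all genes), and for Foxa3 alone at 1 μg/kg (3.13%) and 3 μg/kg (4.49%). Nr1i3 alone had all 5 mice above every vehicle mouse, at 1 μg/kg (4.33% of all genes) and at 10 μg/kg (12.9%). Between 10 and 30 μg/kg directly, 6 of 9 were lower at 30 μg/kg (10.6% of all genes lower, 21.1% called either way), namely Nr0b2 (-2.71 ± 0.38), Nr1i3 (-0.94 ± 0.17), Foxa3 (-0.93 ± 0.27), Foxa2 (-0.88 ± 0.29), Foxa1 (-0.77 ± 0.20) and Cebpa (-0.74 ± 0.15). Hnf4a differed by -0.51 ± 0.12 (edgeR adjusted p = 0.00161), short of 1.5-fold, and Nr1i2 by -0.08 ± 0.13 (adjusted p = 0.706). With library totals alone 3 of 9 were called lower (Nr0b2, Nr1i3 and Foxa3), Cebpa, Foxa1 and Foxa2 were at -0.45, -0.50 and -0.61 and not called, and Nr1i2 was at 0.22, with the opposite sign. That scaling turned 1626 genes called higher and 1623 lower into 3156 and 971. In the first block of title numbers alone, with fewer mice in each group, 1 of 9 was called in this comparison. A downward slope over the ordered doses passed an adjusted p of 0.05 for 6 of 9 (26.1% of all genes downward, 31.5% upward, 57.7% either way), namely Cebpa, Foxa1, Foxa3, Nr0b2, Nr1h4 and Nr1i2, and the slope of Hnf4a was -0.03 ± 0.02 log2 units per step (adjusted p = 0.150).

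Ratios between regulators within a library do not depend on how libraries are scaled. Vehicle mice had a log2 ratio of Nr1i2 to Nr1i3 counts of 1.90 ± 0.223 and mice given 10 μg/kg one of 0.844 ± 0.327 (SD, n = 5), a difference of -1.06 with all 5 treated mice below every vehicle mouse. The log2 ratio of Nr0b2 to Nr1h4 was -0.744 ± 0.790 in vehicle and -3.26 ± 0.808 at 30 μg/kg, a difference of -2.51, again with no overlap. The log2 ratio of Foxa1 to Foxa2 was -0.630 ± 0.369 in vehicle and -1.18 ± 0.220 at 10 μg/kg, a difference of -0.55 with no overlap. Each of these 3 had an exact permutation p of 0.00794 (2-sided), the smallest that 5 mice against 5 can give, and a Benjamini-Hochberg adjusted p of 0.0265 over 10 ratios. The other 7 ratios had adjusted p values from 0.278 to 0.905. Among them, Foxa2 to Foxa3 differed from vehicle by 0.04 at 10 μg/kg and 0.13 at 30 μg/kg. Ratios at the middle doses were not tested. Foxa2 to Foxa3 was at 0.994 ± 0.571 at 1 μg/kg and 1.30 ± 0.671 at 3 μg/kg, against 0.273 ± 0.504 in vehicle (SD, n = 5). Foxa1 to Foxa2 was at -0.613 ± 0.194 and -1.16 ± 0.263 at these doses.

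**Figure D4:**
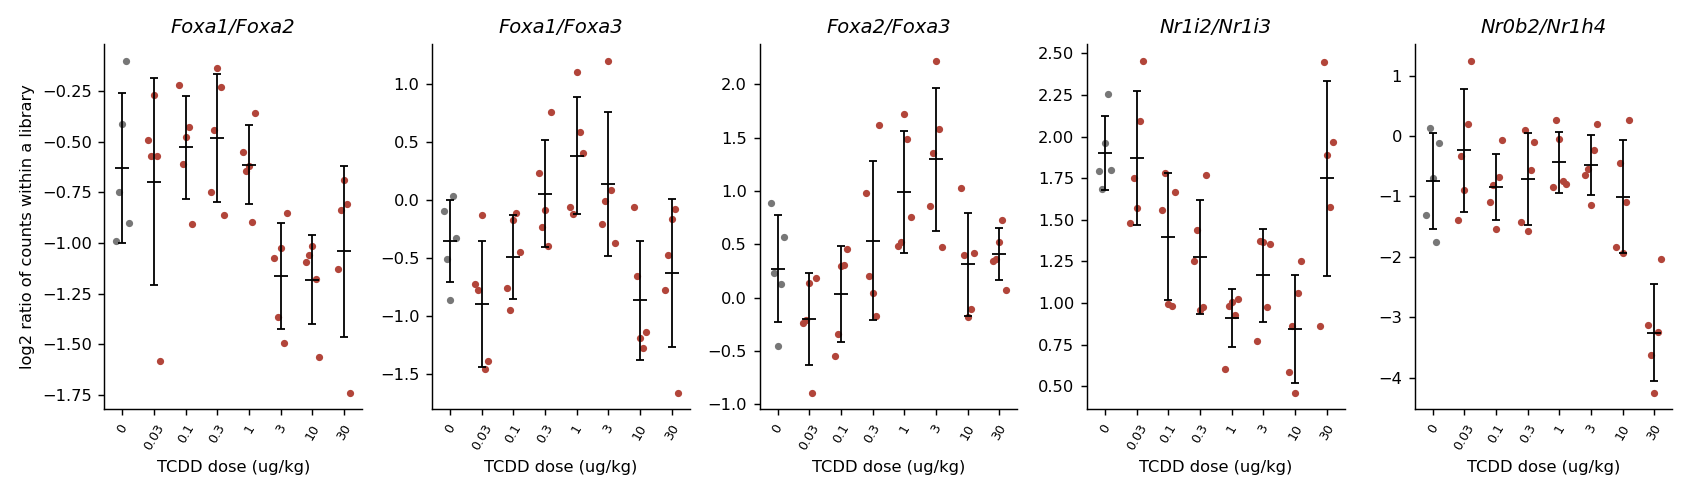
Log2 ratio of the counts of 2 regulators in the same library (y axes) by TCDD dose (x axes), with 1 point per mouse and the mean ± SD of 5 mice. Nr0b2 to Nr1h4 drops at 30 μg/kg, and Nr1i2 to Nr1i3 is lowest at 1 and 10 μg/kg and overlaps vehicle at 30 μg/kg.

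Known target genes of HNF4A, FOXA and CEBPA were mostly lower too. Of 18 such genes, 15 were called lower and 1 higher at 30 μg/kg, and 10 lower and 0 higher at 10 μg/kg, with medians of -1.39 and -0.68. Over all genes 18.9% were called lower and 23.2% higher at 30 μg/kg, and 8.13% and 13.6% at 10 μg/kg. Scaling by library totals alone left 13 of the 18 lower and 1 higher at 30 μg/kg, and 7 and 0 at 10 μg/kg. The largest falls at 30 μg/kg were in Pklr, the liver pyruvate kinase (214.5 ± 38.3 to 13.9 ± 12.0 CPM, log2 fold change -3.95), Otc, a urea cycle enzyme (478 ± 53.9 to 42.0 ± 34.9 CPM, -3.51), and Gys2, the liver glycogen synthase (118 ± 9.90 to 20.1 ± 6.96 CPM, -2.56). Igfbp1, a secreted binder of insulin-like growth factors, was called higher (90.7 ± 71.4 to 778 ± 696 CPM, 3.10), with a spread among treated mice nearly as large as the mean.

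FXR targets were mostly lower too. Of 8 listed, Nr0b2 among them, 6 were tested (Slc51a and Slc51b had too few counts) and 4 were called lower and 1 higher at 30 μg/kg, with a median of -1.10. Over all genes 18.9% were called lower and 23.2% higher at 30 μg/kg, and 8.13% and 13.6% at 10 μg/kg. With library totals alone 3 of the 6 were called lower and 1 higher at 30 μg/kg. Besides Nr0b2, the targets called lower were the bile salt export pump Abcb11 (868 ± 79.0 to 278 ± 82.2 CPM, log2 fold change -1.64), the lipoprotein gene Apoc2 (-1.36) and Pltp (-0.84). The phospholipid transporter Abcb4 was higher (283 ± 30.9 to 428 ± 115 CPM, 0.59). At 10 μg/kg 1 of 6 was called, Abcb11, which was lower (-0.68 ± 0.12). Scaled by library totals alone, it was at -0.47 and no longer called. Of 3 genes that SHP represses, the bile acid uptake transporter Slc10a1 (-2.32 ± 0.21) and the sterol hydroxylase Cyp8b1 (-1.27 ± 0.25) fell at 30 μg/kg, and the same 2 were called lower at 10 μg/kg (-0.85 and -0.63). The 10 μg/kg call of Cyp8b1 (edgeR adjusted p = 0.0443) was lost with library totals alone (-0.45) and in 7 of 10 fits that left out 1 mouse (vehicle replicate 2, 3, 4 or 5, or replicate 1, 3 or 4 at 10 μg/kg), which ran from -0.84 to -0.45, whereas that of Slc10a1 held in all 10 and with library totals (-0.64). Cyp7a1, the rate-limiting enzyme of bile acid synthesis, was at 33.9 ± 16.2 CPM in vehicle and 49.5 ± 79.4 at 30 μg/kg (log2 fold change 0.54 ± 0.77, edgeR adjusted p = 0.574), so its spread does not allow a direction.

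Of 12 targets of PXR and CAR, 3 were called higher and 4 lower at 30 μg/kg, and 3 and 3 at 10 μg/kg. The share called higher at 30 μg/kg (25.0%) was near that of all genes (23.2%), and the share called lower was 33.3%, against 18.9%. At 10 μg/kg each share was 25.0%, against 13.6% of all genes higher and 8.13% lower. Cyp2b10, the classic CAR target, was higher at 10 μg/kg (log2 fold change 2.21 ± 0.46) and not called at 30 μg/kg (17.9 ± 9.11 CPM in vehicle, 14.1 ± 15.7 at 30 μg/kg, -0.36 ± 0.45, edgeR adjusted p = 0.519). Alas1, the first enzyme of heme synthesis (2.42), Por, the electron donor of microsomal P450 enzymes (2.07), and Cyp2c55 (1.56) were higher at 30 μg/kg. The carboxylesterase Ces2a (-3.40), Cyp3a13 (-2.50), Cyp2c29 (-1.51) and the classic PXR target Cyp3a11 (-0.61 ± 0.14) were lower. With library totals alone the split at 30 μg/kg was 4 higher and 3 lower, and at 10 μg/kg 4 and 2.

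The other nuclear receptors gave a measure of how common such falls were. Of 44 others, 35 were tested, and 5 were called higher and 16 lower at 30 μg/kg (14.3% and 45.7%, against 23.2% and 18.9% of all genes). The 10 μg/kg group had 5 called each way (14.3%, against 13.6% of all genes higher and 8.13% lower). The 35 had a median log2 fold change of -0.55 at 30 μg/kg. With library totals alone the 21 calls at 30 μg/kg became 9 higher and 9 lower, and the 10 calls at 10 μg/kg became 7 and 2. Among those that fell were the clock repressor Nr1d1 (-1.99) and the fatty acid receptor Ppara (67.7 ± 9.85 to 18.6 ± 9.14 CPM, -1.87), and the orphan receptors Nr4a3 (0.0886 ± 0.0611 to 0.939 ± 0.360 CPM, at most 2 counts in a vehicle library) and Esrrg (2.47) and the adipogenic receptor Pparg (1.27) rose most. Rxra, the shared heterodimer partner of FXR, PXR and CAR, was at 381 ± 48.3 CPM in vehicle and 327 ± 67.4 at 30 μg/kg (-0.22 ± 0.14, edgeR adjusted p = 0.188). Nr1h3 (LXRα, -0.78), Nr5a2 (LRH-1, which SHP inhibits, -0.71) and the glucocorticoid receptor Nr3c1 (-0.80) were called lower. Of 12 nuclear receptor coregulators, 0 were called at 30 μg/kg by edgeR or DESeq2, with a median of -0.29. By edgeR 42.1% of all genes were called there in either direction, and 55.4% passed by adjusted p alone. By edgeR 5 of the 12 coregulators (at -0.56 to -0.31, Ncoa1, Crebbp, Ncoa2 and Ncor1 among them) had an adjusted p under 0.05 without reaching 1.5-fold, and 7 had an unadjusted p under 0.05.

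**Figure D5:**
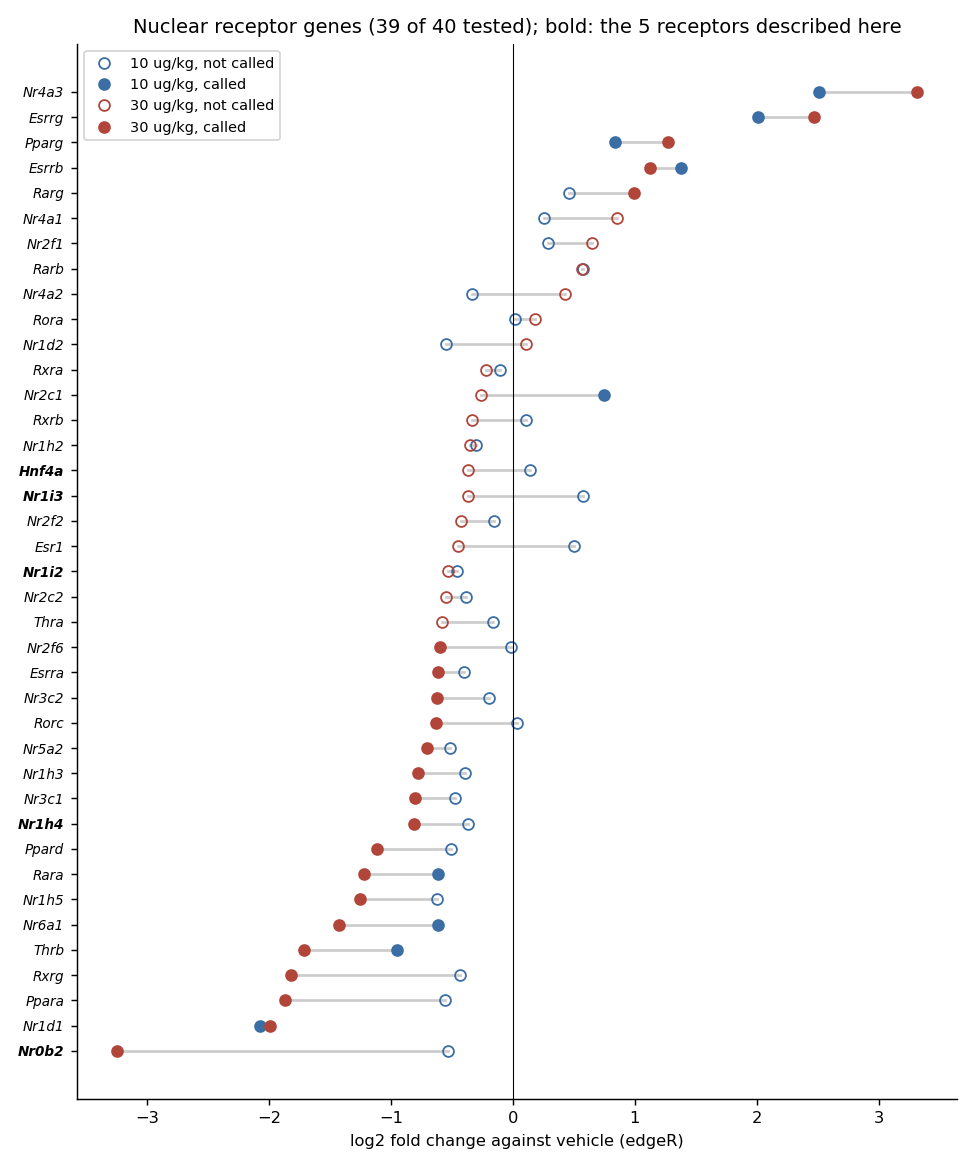
Log2 fold change against vehicle (x axis, edgeR estimate) of 39 of the 40 nuclear receptor genes tested (y axis, ordered by the value at 30 μg/kg) at 10 μg/kg (blue) and 30 μg/kg (red), with filled points for called values. Nr0b2 has the lowest value of the 40 tested at 30 μg/kg, Nr1h4 lies among the called falls, and Hnf4a, Nr1i2 and Nr1i3 lie in the uncalled middle.

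Other liver-enriched transcription factors were more often lower than higher at the highest dose, with 11 called lower and 2 higher of 21 at 30 μg/kg (52.4% and 9.52%, against 18.9% and 23.2% of all genes). At 10 μg/kg 3 were called each way (14.3%), which for the rises was near the 13.6% of all genes, while 8.13% of all genes were lower. Onecut1 (HNF6) went from 6.16 ± 2.50 to 0.765 ± 0.856 CPM (log2 fold change -3.05), and the glucose-sensing Mlxipl (-2.54), the lipogenic Srebf1 (-2.05) and Prox1 (-1.61 ± 0.37) fell as well. The acute-phase factors Cebpd (1.22) and Cebpb (59.2 ± 13.7 to 110 ± 40.0 CPM, 0.89) rose at 30 μg/kg, so 2 other genes of the CEBP family moved in the opposite direction to Cebpa. With library totals alone 3 were called higher and 5 lower at 30 μg/kg, and 3 and 2 at 10 μg/kg.

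Across the 40 libraries the genes most like each regulator by Pearson r of log2 CPM were, for Cebpa, B4galnt1 (r = 0.960), Apoe (0.959) and Fcgrt (0.953), and for Nr0b2, Ccnf (0.954), Dhrs3 (0.939) and Serpinf2 (0.937). For Foxa1 they were Serpina4-ps1 (0.915), Mcm10 (0.904) and Keg1 (0.903), and for Foxa2 Phlda1 (0.910), Onecut1 (0.858) and B430119L08Rik (0.839). For Foxa3 they included Ubtf (0.876) and Sart3 (0.837), and for Hnf4a Bcr (0.863), Rnf187 (0.861) and Srp68 (0.857). For Nr1h4 they were Lypla1 (0.876), Lactb2 (0.872) and Sepsecs (0.868), for Nr1i2 Gm15690 (0.845), Sdhd (0.836) and Bri3 (0.805), and for Nr1i3 Rdh16 (0.819), Cyp2b10 (0.807) and Eif4a2 (0.789). These are descriptions over libraries that share the dose series. Among the 9 themselves r was highest between Foxa1 and Cebpa (0.855), where it was 0.271 after the dose means were removed, and between Hnf4a and Foxa3 it was 0.696 and 0.731.

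Markers of other cell types moved with the same doses. At 30 μg/kg all 6 hepatocyte markers were called lower and their sum was 27938 to 59463 CPM, below every vehicle mouse. The 6 macrophage markers were all called higher (sum 130 to 182 CPM in vehicle, 452 to 1123 at 30 μg/kg), as were 4 of 5 endothelial markers (106 to 148 and 193 to 284 CPM). Of the stellate cell and fibroblast markers 4 of 5 were called higher (67.4 to 119 and 287 to 748 CPM), and 3 of 4 cholangiocyte markers were higher with Sox9 lower (14.4 to 19.3 and 15.9 to 95.7 CPM). The median cholangiocyte sum was 14.9 CPM in vehicle and 20.3 at 30 μg/kg, so the upper end there was not typical of the group. All 4 lymphocyte markers were higher (4.79 to 10.8 and 26.4 to 38.1 CPM), and no marker was at 0 in all libraries of any group. At 10 μg/kg 4 of 6 hepatocyte markers were called lower and 6 of 6 macrophage markers higher. The part of cell makeup in the falls of the 9 regulators was not tested.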

How the data were processed

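Liver RNA of 40 mice was sequenced as 150-base read pairs, and the deposited counts are whole numbers of fragments per gene in STAR's layout, with an unstranded column and 2 strand-specific columns. The submitters' processing notes name FastQC 0.11.7, Trimmomatic 0.39 and STAR 2.7.3a and the builds GRCm39 and mm10 with no role, and the annotation is not given in the sources used here. Groups and doses came from the labels, with 1 library per mouse, and p-values measure the spread between these mice. Among 80 replicate pairs none agreed within sampling noise (lowest chi-square per degree of freedom, 10.2). Rows that name no gene were left out, and they held 5.24% to 7.43% of fragments as multimapping, 2.47% to 11.3% as unmapped, 3.34% to 7.36% outside genes and 4.84% to 5.90% as ambiguous.

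The unstranded counts were tested with edgeR 4.0.16 (R 4.3.3) by the quasi-likelihood test, with TMM scaling, genes kept by filterByExpr (minimum count 10, minimum total 15), 1 mean per group over all 40 libraries and Benjamini-Hochberg adjustment over all 15373 genes. A call needed an adjusted p under 0.05 and a fold of at least 1.5. A slope over the 8 ordered dose groups was called on adjusted p alone. Ratios were log2 of counts plus 0.5 and were compared by an exact permutation test, 2-sided. Alternatives were DESeq2 1.42.0, limma 3.58.1 on the authors' deposited table of 23120 genes, which holds normalized values already on a log2 scale, other scalings, filters, count columns and samples. The script for the fits was checked on simulated counts. Levels per length used merged exons of GENCODE M21, and 52083 of 55359 identifiers were named through the gene table.

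Besides the 9 regulators, the genes named were up to 3 with the largest rise and 3 with the largest fall at 30 μg/kg among the called genes of each list, 12 genes chosen by name (Rxra, Ppara, Nr1h3, Nr5a2, Cebpb, Onecut1, Prox1, Nr3c1, Cyp7a1, Abcb11, Cyp2b10 and Cyp3a11), and the 3 genes most like each regulator. Pltp, the coregulators, Tomm40l and Gm45091 were named after their values or overlaps were seen. A few genes that this rule selects are not reported here, although list counts include them. The regulators and all lists were chosen with earlier results of these data known.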

Additional observations from a re-analysis of the deposited data

Results flagged for a closer look

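In 5 of 72 sets of 5 mice (9 regulators in 8 groups) 1 mouse stood apart from the other 4, where chance alone gives about 1 in 20. The gap to the nearest mouse, as a share of the whole range, was 0.741 for Hnf4a at 0.1 μg/kg (replicate 5 at 858 CPM, the others at 607 to 664), 0.793 for Foxa1 at 0.1 μg/kg (replicate 5 at 46.1, the others at 23.5 to 27.0) and 0.859 for Foxa2 at 0.1 μg/kg (replicate 5 at 86.5, the others at 31.4 to 36.3), so the same mouse was highest in all 3. It was 0.834 for Hnf4a at 0.3 μg/kg (replicate 2 lowest at 589 CPM, the others at 656 to 671). It was 0.763 for Foxa1 at 30 μg/kg (replicate 1 highest at 12.3 CPM, the others at 7.36 to 8.31), and without that mouse the log2 fold change of Foxa1 there was -1.86.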

How the results depend on the processing

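Counts of called genes and regulators kept within 1.5 times of their values, and ratios and levels stayed close, apart from the following. No paired analysis was possible because the labels hold no replicate numbers that would tie a treated mouse to a vehicle mouse. With no filter on low counts 19 genes were called at 0.03 μg/kg (3 in the report's fit) and 33 at 0.1 μg/kg (15), and 1 SHP-repressed gene at 10 μg/kg (2). DESeq2 called 12 and 24 genes at these doses, 2 regulators at 1 μg/kg (1) and 1 coregulator at 10 μg/kg (0). Limma on the deposited values called 9 genes at 0.1 μg/kg. A mean of at least 50 counts left 4272 genes called at 30 μg/kg (6476), with fewer genes tested. With no fold threshold 1577 genes were called at 3 μg/kg (1038) and 4883 between 10 and 30 μg/kg (3249), with 4 regulators at 10 μg/kg (2) and 5 coregulators at 30 μg/kg (0). Fits of vehicle and 1 dose alone called 2 regulators at 1 μg/kg, 1 at 3 μg/kg (0) and 1 SHP-repressed gene at 10 μg/kg. The sum of both strand columns, added after the data were seen, called 2 FXR targets at 10 μg/kg (1) and gave vehicle levels per length of 204 for Cebpa and 58.4 for Nr1i3. Over the longest transcript Nr1h4 was at 54.9 and Nr1i3 at 8.18.

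With library totals alone 3 regulators were called between 10 and 30 μg/kg (6), 0 FXR targets and 1 SHP-repressed gene at 10 μg/kg, and 8 other liver factors (13) and 1 coregulator at 30 μg/kg, while Hnf4a (0.12) and Nr1i3 (0.11) at 30 μg/kg turned positive. Fits on title numbers up to 27 called 4, 20, 173, 428 and 1908 genes at 0.1, 0.3, 1, 3 and 10 μg/kg and 506 between 10 and 30 μg/kg. They called 0 regulators at 1 μg/kg and 1 between 10 and 30 μg/kg, and at 10 μg/kg 2 other liver factors (6), 5 other nuclear receptors (10), 5 HNF4A, FOXA and CEBPA targets (10) and 0 SHP-repressed genes, with 8 other liver factors at 30 μg/kg. On numbers from 28 the calls were 7, 22, 76 and 402 genes at 0.1, 0.3, 1 and 3 μg/kg, 0 regulators at 1 μg/kg, 3 other liver factors, 6 other nuclear receptors and 1 SHP-repressed gene at 10 μg/kg, and 3 coregulators at 30 μg/kg. Signs turned for Hnf4a at 10 μg/kg (-0.080, first numbers) and Foxa3 at 10 μg/kg (0.012, later numbers). At 10 μg/kg they also turned for the ratios Foxa1 to Foxa3 (0.13, first), Foxa2 to Foxa3 (-0.30, later) and Nr0b2 to Nr1h4 (0.014, later). The 3 ratios past the threshold lost it in the first and later numbers, where too few mice remain to reach it: Foxa1 to Foxa2 at 10 μg/kg (-0.36 and -0.75, and -0.57 on 1 strand column), Nr1i2 to Nr1i3 at 10 μg/kg (-1.09 and -1.10) and Nr0b2 to Nr1h4 at 30 μg/kg (-2.76 and -2.25). Apart from those construction limits, the cause was not tested.

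Leaving out 1 mouse at a time gave 2 to 9 genes at 0.03 μg/kg, 8 to 17 at 0.1 μg/kg, 0 to 1 coregulators at 10 μg/kg and 0 to 2 at 30 μg/kg, and 1 to 2 SHP-repressed genes at 10 μg/kg. The ratios ran from -0.64 to -0.42 (Foxa1 to Foxa2, 10 μg/kg), -1.16 to -0.96 (Nr1i2 to Nr1i3, 10 μg/kg) and -2.82 to -2.26 (Nr0b2 to Nr1h4, 30 μg/kg), each with an adjusted p of 0.0529 in all 10 fits. In each of these fits the 2 groups still did not overlap, so the loss of the call comes from the smaller number of mice. Foxa2 to Foxa3 ran from -0.14 to 0.19 at 10 μg/kg and -0.049 to 0.29 at 30 μg/kg, and Nr1i2 to Nr1i3 from -0.33 to 0.070 at 30 μg/kg. The 6 falls at 30 μg/kg stayed called in every such fit. With 5 mice per group, regulators with a wide spread (Foxa2, Foxa3 and Nr0b2) carry SE of 0.27 to 0.39 on the log2 scale at 30 μg/kg.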
